A study of Saccharomyces cerevisiae with 43 samples.

Results

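The late response of budding yeast to hydrogen peroxide was compared between cells that had been through salt stress and cells that had not. The comparison rests on 8 arrays of the 43 in the series, all from the first of 2 array designs, which holds 32 arrays. They were chosen by their labels: 4 arrays of NaCl-pretreated BY4741 and 4 arrays of naive BY4741, each arm with 2 arrays at 30 min and 2 at 40 min of 0.4 mM H2O2. Every sample was the same strain, BY4741, a widely used haploid strain with mating type a, and no arm of this comparison carried a further gene deletion. Cells of both arms were grown in YPD, a rich glucose medium, for 3 doublings. Pretreated cells were then held in 0.7 M NaCl for 60 min, returned to YPD for 4 h, and exposed to H2O2. Naive cells met H2O2 without NaCl before it. One label describes them as log-phase cells exposed directly and another calls them mock cells, so whether they were also handled through a mock recovery is not settled here. Each array carried 2 dyes and gave, for each gene, the log ratio of H2O2-treated cells over a reference, so the reference differed between the arms: untreated cells at 0 min for naive cells, and recovered cells just before H2O2 for pretreated cells. The question the design puts is how a past salt stress bears on the response to a later peroxide dose, and pooling 30 and 40 min gives 4 arrays against 4, where each time alone has 2 against 2.

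As background, yeast that meets a sudden stress raises a common set of protective genes, among them chaperones, antioxidant enzymes and enzymes of trehalose and glycogen metabolism, and turns down the genes that build ribosomes and support fast growth. Peroxide also acts through the transcription factor Yap1, which drives thioredoxin, peroxiredoxin and glutathione genes. Exposure to a mild stress can leave yeast more tolerant of a different, stronger one applied later, a behaviour known as acquired stress resistance.

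The late arrays held between 5212 and 5545 values each, and 4321 of the 5604 genes on the array had a value on all 8. The values are read as log2 throughout, since their base is not given in the sources used here. Array medians lay between -0.10 and -0.02, whereas the spread differed between the arms: the standard deviation (SD) over genes was 1.12 to 1.35 on the 4 naive arrays and 1.32 to 1.46 on the 4 pretreated arrays. The calls below were therefore also made with each array rescaled to 1 common SD, and the text says where a list's count or a named gene's call of the late difference moved with it. The labels do not say whether arrays of 1 replicate number at 30 and 40 min came from 1 culture. Deviations from the group means at 30 and 40 min correlated across genes within an arm and replicate number (r = 0.414 in pretreated and 0.407 in naive cells), so the 4 arrays of an arm may stand for fewer than 4 independent cultures. Pretreated replicate 1 carried print number 44 at both times and replicate 2 number 66, whereas naive replicate 1 carried 28 and 41 and replicate 2 number 67, so no print number held both arms. The limma p-values below rest on the spread within groups over the 20 H2O2 arrays of this design, 12 of them at 10 and 20 min. That spread may in part be technical. Replicate 3 at 10 and 20 min, in both arms, came from another print series (YG8) than the other H2O2 arrays (YG9).

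Pretreated and naive cells differed at many genes late in the peroxide response. Of 5410 genes tested with limma, 1024 (18.9%) passed an adjusted p of 0.05. Of these, 690 (12.8% of genes tested) were lower in pretreated cells and 334 (6.17%) were higher, and the median difference over all genes tested was -0.03. Among the 690 lower genes, 464 read below the reference in both arms, 122 read above it in naive and below it in pretreated cells, and 104 read above it in both. Their median log ratio was -0.51 in naive and -1.50 in pretreated cells. Among the 334 higher genes, 139 read below the reference in naive and above it in pretreated cells, 104 above it in both and 91 below it in both, with medians of -0.40 and 0.43. The excess of lower over higher genes depended on the scaling: with the array spread equalised 458 genes (8.47%) passed, 100 higher (1.85%) and 358 lower (6.62%), and after quantile normalization 245 (4.53%) passed, 108 higher and 137 lower. When 30 and 40 min were averaged per replicate number, so that 2 values stood against 2, 232 of 4321 genes (5.37%) passed, 63 higher and 169 lower. Of the 4321 genes with all 8 values, 501 (11.6%) had every pretreated value below every naive value and 454 (10.5%) every one above. Leaving out naive replicate 1 left 346 genes, naive replicate 2 left 466, and pretreated replicate 1 left 519.

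**Figure D1:**
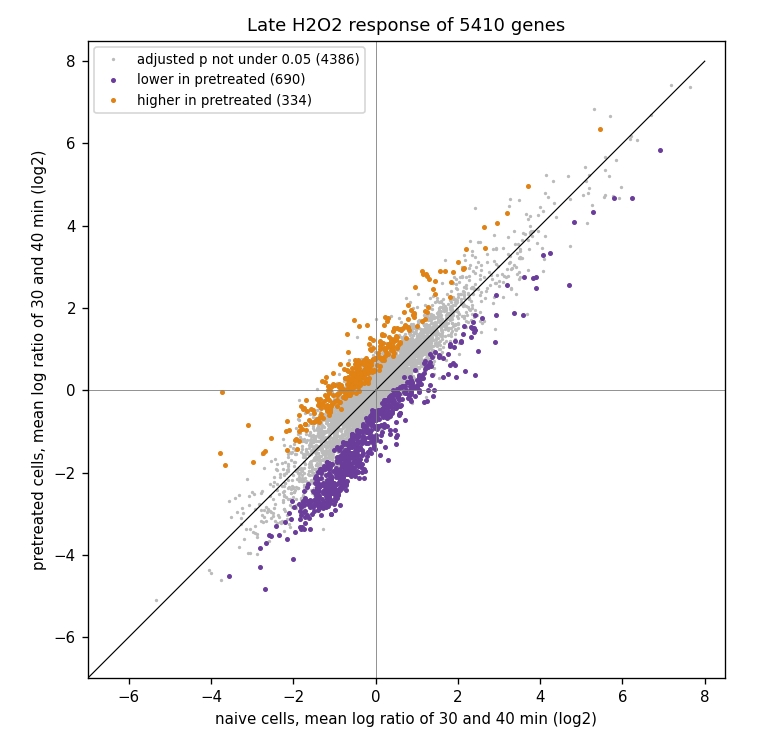
Mean log ratio (log2) of 30 and 40 min in naive cells (x axis) against pretreated cells (y axis) for the 5410 genes tested, each point 1 gene, with the line of equality. The 690 genes lower in pretreated cells lie mostly at negative ratios. The 334 higher genes have a median of -0.40 in naive and 0.43 in pretreated cells, and 91 of them are below 0 in both.

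The genes of cytosolic ribosomal proteins made up the most uniform group. Of 133 tested, 129 (97.0%) were lower in pretreated cells and none was higher: 78 of 79 of the large subunit, with a median difference of -1.44, and 51 of 54 of the small subunit, with a median of -1.40. The median large-subunit gene read -0.29 and -0.35 on the naive 30 min arrays and -1.22 and -1.34 at 40 min. On the pretreated arrays it read -1.98 and -1.15 at 30 min and -3.40 and -2.45 at 40 min. At each time both pretreated arrays lay below both naive arrays, but pretreated replicate 2 at 30 min lay just above the naive 40 min arrays. With the array spread equalised, 108 of the 133 genes (81.2%) were still called, against 6.62% of all genes, and the subunit medians were -1.03 and -1.01. In recovered cells, the reference of the pretreated arm, the median large-subunit gene stood 0.37 above untreated cells before H2O2, and 0.22 above in cells 240 min after a mock treatment. Many of these genes come in near-identical pairs, and spotted probes can read both copies, so members of a pair are not independent.

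RPS13, a protein of the small subunit, read -0.28 and -0.55 at 30 min and -1.65 and -1.49 at 40 min in naive cells. In pretreated cells it read -2.41 and -1.88, then -4.27 and -3.08. All 4 pretreated values lay below all 4 naive values, a difference of -1.92 ± 0.26 (SE) that passed in limma (adjusted p = 0.000621). An exact permutation test of 4 arrays against 4 gave the smallest p it allows (0.0286, two-sided). Any gene without overlap on all 8 arrays reaches it, as 11.6% of such genes did in the lower and 10.5% in the higher direction. The permutation left time out and took the arrays as independent. With 1 culture per replicate number, 2 against 2 would allow no p under 0.333. RPL4B, a protein of the large subunit, was above the reference on all 4 naive arrays, at 0.89, 0.54, 0.27 and 0.28, and below it on all 4 pretreated arrays, at -1.07, -0.51, -2.16 and -1.44. Its difference was -1.79 ± 0.22 (limma, adjusted p = 0.000443). RPL4A, its paralog, differed by -1.62 ± 0.22 and likewise did not overlap between the arms. RPL26B, RPS8A, RPL8B and the stalk proteins RPP0 and RPP2B were among the 12 genes with the lowest differences of those measured on all 8 arrays without overlap between the arms, at -1.93 to -1.70. RPL16A had 7 values and differed by -1.94 ± 0.23.

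The 4 ribosomal protein genes that missed the threshold, named after their values were seen, were already low in naive cells. RPS28B read between -4.04 and -2.31 on the naive arrays and -4.12 to -3.79 on the pretreated arrays, a difference of -0.91 (adjusted p = 0.187). RPS9A differed by -0.60, RPL22B by -0.73 and RPS22B by -0.03. Each of them belongs to a pair of gene copies.

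**Figure D2:**
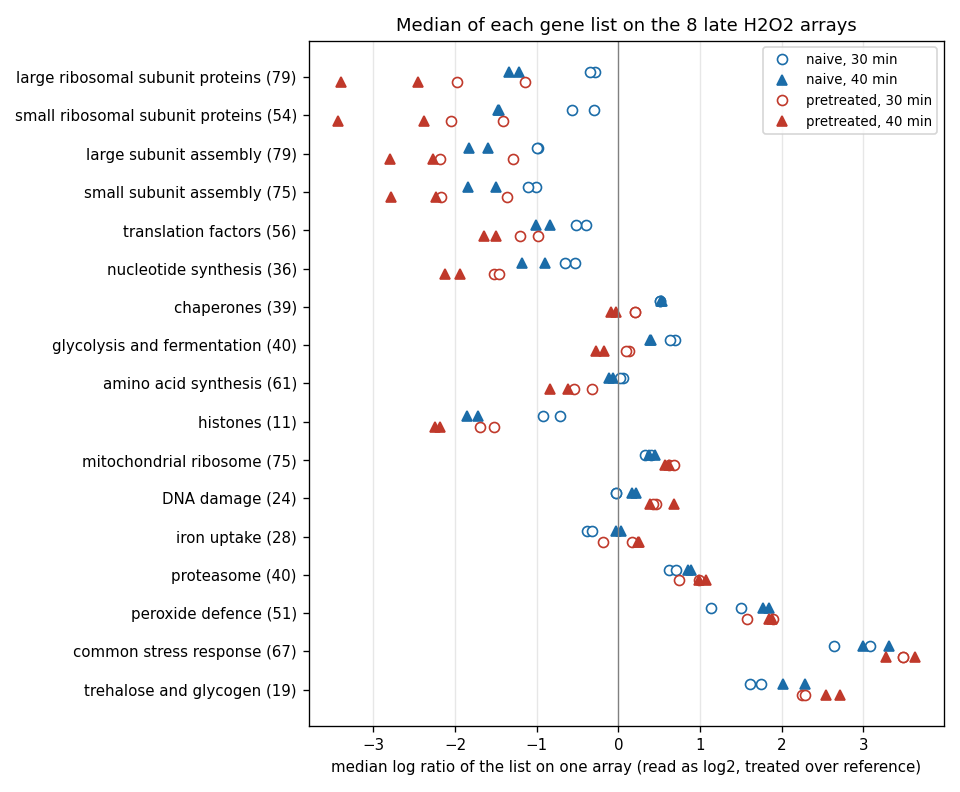
Median log ratio (log2) of each gene list on each of the 8 late arrays, naive in blue and pretreated in red, open circles at 30 min and triangles at 40 min, with the number of genes tested in brackets. Ribosomal protein lists span -3.44 to -0.29, and for chaperones the 4 naive arrays lie between 0.51 and 0.53, above all 4 pretreated arrays.

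Genes that assemble ribosomes were also lower, though a smaller share of them passed. Of the large-subunit assembly list 31 of 79 (39.2%) were lower and none higher (median -0.73), against 12.8% of all genes lower. Of the small-subunit list 23 of 75 (30.7%) were lower and none higher (median -0.74). With the array spread equalised these counts were 8 (10.1%) and 7 (9.33%), against 6.62% of all genes. NOC4, an assembly factor of the small subunit, read -0.35, -0.74, -0.92 and -1.50 in naive cells and -1.99, -1.68, -2.73 and -2.45 in pretreated cells. The arms did not overlap, and the difference was -1.34 ± 0.27 (limma, adjusted p = 0.00358). NOP14, DIM1 and NOP10 of the same list also passed, at -1.24, -1.08 and -1.04, but in each of them a pretreated array overlapped the naive arrays. For the large subunit, ERB1, NMD3, BRX1 and HAS1 differed by -1.31, -1.27, -1.35 and -1.07, and of these ERB1 alone had no overlap.

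RRS1, another large-subunit assembly gene, differed by -2.14 ± 0.58, but 1 array weighed on it, and with the spread equalised it was not called (adjusted p = 0.0595). Its pretreated values were -3.73, -3.85, -3.86 and -7.84, the last from replicate 2 at 40 min, against -2.36, -2.16, -2.94 and -3.25 in naive cells. RSA4 had its lowest value on that array as well, -6.09 against -3.52, -3.58 and -4.03, and it too lost its call (adjusted p = 0.193). NOG1, a GTPase of the same pathway, differed by -0.84 and missed the threshold (adjusted p = 0.111).

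RNA polymerase I transcribes the ribosomal RNA and RNA polymerase III the 5S and transfer RNAs. Of 39 genes of both enzymes and their factors 6 (15.4%) were lower, near the 12.8% of all genes, and 3 with the spread equalised. TFC3, of the factor that recruits polymerase III, was higher by 0.63 ± 0.14 but not with the spread equalised (adjusted p = 0.0876). The 2 largest subunits of polymerase I, RPA190 and RPA135, differed by -1.21 and -1.35, and RPC40, shared by polymerases I and III, by -1.20. RPA12, a small subunit of polymerase I, read -4.56 to -2.23 in naive and -3.92 to -2.60 in pretreated cells and did not pass (-0.21, adjusted p = 0.667).

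Among translation factors and aminoacyl-tRNA synthetases, 29 of 56 (51.8%, against 12.8% of all genes) were lower and none higher, with a median of -0.60. With the spread equalised 11 (19.6%, against 6.62%) were lower. WRS1, the tryptophanyl-tRNA synthetase, read 0.04, -0.05, -0.24 and -0.54 in naive and -0.97, -1.69, -1.93 and -1.38 in pretreated cells, a difference of -1.30 ± 0.20 (limma, adjusted p = 0.000923). DED1, an RNA helicase of translation initiation, and EFT1, 1 of the copies of elongation factor 2, differed by -1.22 and -1.23, and KRS1, the lysyl-tRNA synthetase, by -0.98. None of these 4 overlapped between the arms, but they were picked for the smallest p of this same difference. Of the 56 genes, 18 had every measured pretreated value below every measured naive value, and 2 every one above. Among all 5410 genes tested these counts were 616 and 597. MBF1, a coactivator of amino acid synthesis genes, was above the reference in both arms but further in naive cells, at 2.15, 2.07, 1.78 and 1.75 against 0.95, 0.52, 0.23 and 0.75 (-1.33 ± 0.16, limma adjusted p = 0.000443).

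Genes of nucleotide and amino acid synthesis followed the same direction. Of 36 nucleotide synthesis genes 21 (58.3%) were lower (median -0.82), against 12.8% of all genes. Of 61 amino acid genes 25 (41.0%) were lower (median -0.43), with none higher in either list. With the spread equalised 11 (30.6%) and 10 (16.4%) were lower, against 6.62% of all genes, and 1 amino acid gene was higher. GUA1, the GMP synthase, read -0.97, -1.15, -1.49 and -1.87 in naive and -2.33, -2.48, -3.83 and -2.79 in pretreated cells (-1.49 ± 0.23, limma adjusted p = 0.000890). URA1 of pyrimidine synthesis, ADE6 of purine synthesis and the guanylate kinase GUK1 differed by -1.52, -1.28 and -1.01, again without overlap. These genes were picked for the smallest p of this same difference. Of the 36 genes, 15 had every measured pretreated value below every measured naive value, and none every one above, against 616 and 597 of all 5410 genes tested. LEU1 of leucine synthesis was near the reference in naive cells, at 0.42, 0.10, -0.15 and -0.45, and at -0.88, -0.78, -2.12 and -1.94 in pretreated cells, a difference of -1.41 ± 0.20. SHM2, HOM2 and ARO4, enzymes of glycine and serine exchange, of the threonine and methionine branch and of aromatic synthesis, differed by -1.21, -0.98 and -1.15. ILV5, a gene of branched-chain synthesis, was far below the reference in both arms, between -5.45 and -5.22 in naive and -5.29 and -4.95 in pretreated cells. It did not pass (0.24, adjusted p = 0.609), but with the spread equalised it was higher by 0.74 (adjusted p = 0.0436).

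Glycolysis and fermentation genes stood above the reference in naive cells and near or below it in pretreated cells. The list median was 0.69 and 0.64 on the naive 30 min arrays and 0.40 and 0.38 at 40 min, against 0.13 and 0.09, then -0.28 and -0.18, in pretreated cells, with no overlap between the arms. Of 40 genes 19 (47.5%, against 12.8% of all genes) were lower and 1 higher. With the spread equalised 12 (30.0%, against 6.62%) were lower. CDC19, the pyruvate kinase of fast-growing cells, read 0.79, 0.61, 0.38 and 0.19 in naive and -0.27, -0.77, -1.28 and -0.75 in pretreated cells (-1.26 ± 0.18, limma adjusted p = 0.000693). ADH1, the main fermentative alcohol dehydrogenase, differed by -0.97, the enolase ENO2 by -1.09 and the pyruvate decarboxylase PDC5 by -1.42. Each of the 4 lacked overlap between the arms, but they were picked for the smallest p of this same difference. Of the 40 genes, 19 had every measured pretreated value below every measured naive value, and 1 every one above. For all 5410 genes tested the counts were 616 and 597.

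Smaller lists can be read against the shares of all genes, 12.8% lower and 6.17% higher, or 6.62% and 1.85% with the spread equalised. Of 23 phosphate genes 9 (39.1%) were lower and 2 higher, and 5 and 1 with the spread equalised. The acid phosphatases PHO3, PHO5, PHO11 and PHO12 were the 4 with the smallest p, between -1.65 and -1.45, but they are close copies that probes may not separate. Of 28 ergosterol genes 8 (28.6%) were lower, and 5 with the spread equalised, led by ERG2 and ERG3 at -1.11 and -1.32. Of 11 histone genes 4 were lower, HTB2, HTA2, HTA1 and HHT2, between -1.17 and -0.54, each overlapping between the arms, and HTB2 alone was called with the spread equalised. Of 34 cell wall genes 5 (14.7%) were lower, with CWP2, GAS3 and SCW10 between -1.23 and -1.16, and 3 were higher. With the spread equalised 4 were lower and 1 higher. ROM1, which activates the wall integrity GTPase Rho1, was among the higher genes. It read -0.06, -0.23, 0.50 and 0.74 in naive and 1.92, 1.02, 2.24 and 1.90 in pretreated cells (1.53 ± 0.30, limma adjusted p = 0.00386). Of 41 genes that act around the start of the cell cycle 3 (7.32%) were lower and 1 higher, and of 40 around mitosis 7 (17.5%) were lower and 2 higher. With the spread equalised the mitosis list had 2 lower and none higher, and the first list 4 lower and 1 higher. The lower members of both cell cycle lists with the smallest p, GAS1, SVS1, CRH1 and CIS3, encode wall proteins or wall enzymes (-1.25 to -0.84). CLN2, a cyclin of the cycle's start, differed by -0.65 and did not pass (adjusted p = 0.0931). Of 53 genes of respiration and the citric acid cycle 8 were lower and 2 higher, a combined 18.9% that equals the share of all genes, and 2 were lower and 1 higher with the spread equalised. CIT2, the peroxisomal citrate synthase, was lowest of the 4 with the smallest p, at -1.41, and NDE1, an external NADH dehydrogenase, was higher by 0.82.

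Chaperones help proteins fold, and the median of the chaperone list stood above the reference in naive cells and close to it in pretreated cells. The list leaves out HSP26, HSP42, HSP78, HSP104 and SSE2, which are counted with the common stress genes. Of 39 tested 22 (56.4%, against 12.8% of all genes) were lower in pretreated cells and none was higher (median -0.72). With the array spread equalised 16 (41.0%, against 6.62%) were lower (median -0.63). The list median was 0.51 to 0.53 on the 4 naive arrays, and 0.20, 0.20, -0.10 and -0.03 on the pretreated arrays. KAR2, the Hsp70 of the endoplasmic reticulum, read 1.47, 1.18, 1.27 and 1.20 in naive cells and 0.25, 0.27, -0.09 and -0.41 in pretreated cells. The arms lay more than their own range apart, with a difference of -1.28 ± 0.17 (limma, adjusted p = 0.000586), and KAR2 in recovered cells stood only 0.11 above untreated cells. SIS1, a J-domain partner of cytosolic Hsp70, was above the reference everywhere, at 2.86, 2.80, 3.02 and 3.01 in naive and 1.85, 2.28, 1.56 and 1.66 in pretreated cells (-1.09 ± 0.17). KAR2 and SIS1, like FES1 and CUR1 below, were picked for the smallest p of this same difference. Of the 39 genes, 18 had every measured pretreated value below every measured naive value, and none every one above. Among all 5410 genes tested these counts were 616 and 597.

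FES1, a nucleotide exchange factor of Hsp70, had 3 naive values between 3.85 and 3.94 and pretreated values of 2.53, 3.03, 1.71 and 2.67, a difference of -1.40 ± 0.22. CUR1, which sorts misfolded proteins, was 2.39, 2.38, 2.31 and 2.15 against 1.42, 1.55, 0.93 and 1.31 (-1.01 ± 0.16), and APJ1, a further J-domain protein, was 3.96, 4.03, 3.37 and 2.94 against 1.26, 2.79, 0.90 and 2.35 (-1.75 ± 0.50, limma adjusted p = 0.0231). SSE2 and HSP104 are on the common stress list, SSE2 named for its small p there and HSP104 looked up by name. SSE2, the stress-induced Hsp110, differed by -0.73 ± 0.18. HSP104, the disaggregase, read 3.66 to 4.31 in naive and 3.17 to 3.89 in pretreated cells, an overlap, and did not pass (-0.57, adjusted p = 0.0945), though it did with the spread equalised (-0.87, adjusted p = 0.0452).

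**Figure D3:**
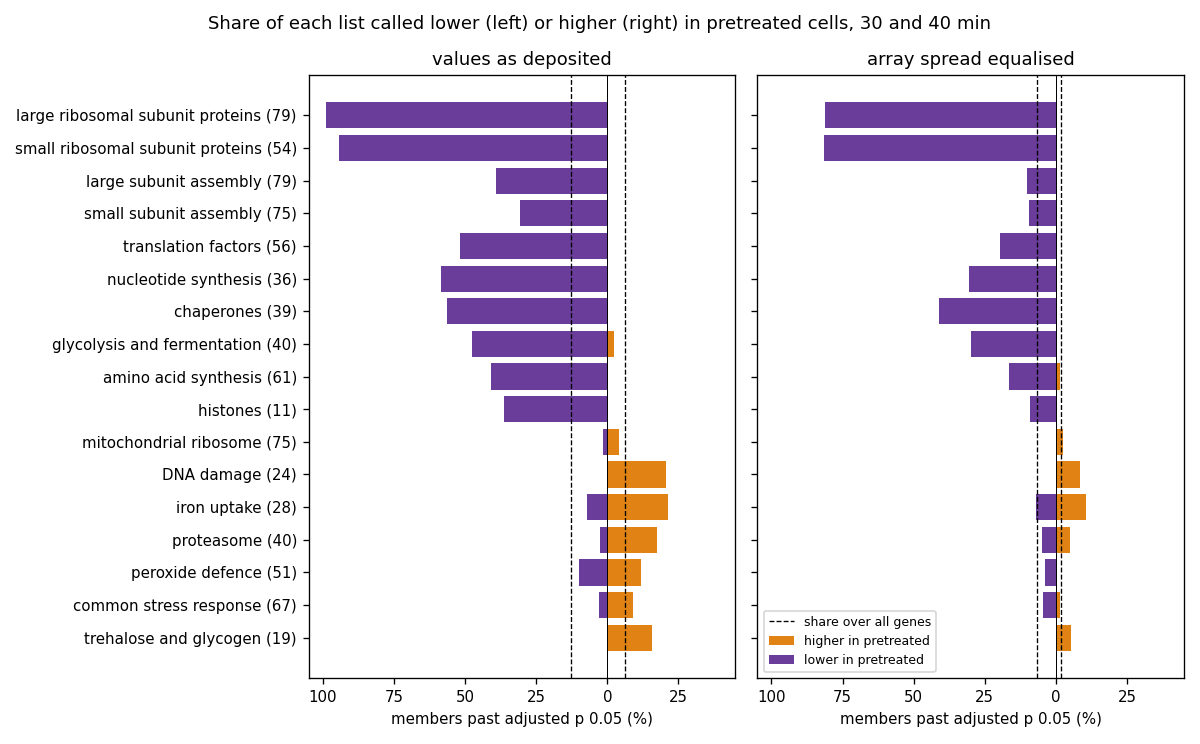
Share of the tested members of each list that were lower (bars to the left, purple) or higher (to the right, orange) in pretreated cells at an adjusted p under 0.05, with the shares over all genes as dashed lines, from the values as deposited (left panel) and with the array spread equalised (right panel). Ribosomal proteins and chaperones stay far beyond the lines in both panels, while the assembly lists and the common stress list come close to them on the right.

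The common stress genes, by contrast, stood well above the reference in both arms, and more of them leaned higher than lower in pretreated cells. The list median was 2.64, 3.08, 3.00 and 3.31 on the naive arrays and 3.49, 3.48, 3.28 and 3.63 on the pretreated arrays. Of 67 genes 6 (8.96%) were higher and 2 lower, a share of higher genes near that of all genes, and the median difference of 0.45 dropped to 0.06 with the array spread equalised. Differences were positive for 45 genes and negative for 22, or 35 and 32 with the spread equalised. In the deposited values 17 of the 67 had every measured pretreated value above every measured naive value, and 4 every one below. Among all 5410 genes tested these counts were 597 and 616. The members with the smallest p were GDB1, described below, the mitochondrial peroxiredoxin PRX1 (1.10 ± 0.28), the methyltransferase CRG1 (1.43 ± 0.37) and, in the lower direction, SSE2. PRX1 and CRG1 were not called with the spread equalised (adjusted p = 0.131 and 0.0672). HSP12, a small membrane-protecting stress protein, read 5.48 to 6.68 in naive and 5.55 to 6.51 in pretreated cells and differed by -0.03 (adjusted p = 0.982). DDR2 of the same list and HSP30, a membrane heat-shock protein counted with the chaperones, differed by 0.23 and -0.27 with neither passing (adjusted p = 0.801 and 0.766).

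Genes of peroxide defence were called in both directions, a combined 21.6% that is near the 18.9% of all genes. Of 51 tested 6 were higher (11.8%, against 6.17% of all genes) and 5 lower (9.80%, against 12.8%). PRX1, named above, is on this list as well as on the common stress list. The list median of 0.17 turned to -0.11 with the array spread equalised. Then 2 were lower and none higher, 3.92% against 8.47% of all genes in either direction. TSA2, a stress-induced cytosolic peroxiredoxin, read 4.92, 5.31, 5.85 and 5.70 in naive cells and 6.42, 6.63, 6.08 and 6.29 in pretreated cells. The arms did not overlap and the gene was higher by 0.91 ± 0.19 (limma, adjusted p = 0.00438), but with the spread equalised the difference was 0.17 (adjusted p = 0.834). YAP1, the central peroxide regulator, was 0.83, 0.85, 1.73 and 1.64 in naive and 2.11, 1.52, 2.29 and 2.16 in pretreated cells, higher by 0.76 ± 0.23 with 1 pretreated array inside the naive range (adjusted p = 0.0315, and 0.210 with the spread equalised).

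Of the 5 lower members, the 3 with the smallest p follow. GND1, an NADPH-producing enzyme of the pentose phosphate pathway, was near the reference in naive cells and below it in pretreated cells, at 0.28, 0.44, -0.06 and -0.14 against -0.48, -0.63, -1.21 and -1.05 (-0.97 ± 0.14, limma adjusted p = 0.000705). TKL1, the transketolase of that pathway, differed by -0.75 ± 0.16 with overlap between the arms, and was not called with the spread equalised (-0.47, adjusted p = 0.0572). CIN5, a Yap-family factor with a role in salt tolerance, was strongly above the reference in both arms but lower in pretreated cells, at 5.27, 5.61, 5.05 and 5.24 against 4.51, 4.49, 4.04 and 4.29 (-0.96 ± 0.24, adjusted p = 0.0108).

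Several well-known peroxide genes gave no call. CTT1, the cytosolic catalase, is counted with the common stress genes and not among the 51 above. It read 5.98, 5.77, 5.97 and 6.16 in naive and 5.23, 5.51, 4.14 and 4.90 in pretreated cells. Every pretreated array lay below every naive array (exact permutation p = 0.0286, which every gene without overlap reaches). The limma test missed the threshold at -1.03 ± 0.52 (adjusted p = 0.187). The thioredoxin TRX2 differed by 0.07, the thioredoxin reductase TRR1 by -0.28 and the glutathione synthesis enzyme GSH1 by 0.18, with adjusted p of 0.870, 0.346 and 0.582. SRX1, which repairs peroxiredoxins, had 2 naive values, 7.33 and 7.04, and none in pretreated cells, and could not be tested.

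Within trehalose and glycogen metabolism, the 3 members called at this threshold break the reserves down, but the set called depended on the setting. Of 19 genes 3 (15.8%, against 6.17% of all genes) were higher and none lower, with a median of 0.78 against -0.03 for all genes. Of the 19 differences 16 were positive. The list shares 11 of its genes with the common stress list. GPH1, the glycogen phosphorylase, also breaks glycogen down and was not among the 3 called. With the spread equalised 1 was higher, and with each array centred on its median 6 were higher and 1 lower. GDB1, the glycogen debranching enzyme, read 0.45, 0.91, 0.78 and 1.66 in naive and 2.24, 2.28, 2.84 and 2.73 in pretreated cells, without overlap, and was higher by 1.57 ± 0.30 (limma, adjusted p = 0.00361, and 0.0361 with the spread equalised). ATH1, the acid trehalase, had naive values of 0.35, 0.35 and 0.24 and pretreated values of 1.49, 0.95, 2.57 and 2.01 (1.46 ± 0.38, adjusted p = 0.0235). NTH1, the neutral trehalase, was higher by 0.79 ± 0.25 (adjusted p = 0.0396), and its paralog NTH2 read 0.78 and just missed (adjusted p = 0.0543). Neither ATH1 nor NTH1 passed with the spread equalised (adjusted p = 0.149 and 0.391). On the synthesis side, the trehalose synthase subunits TSL1 and TPS2 and the glycogen branching enzyme GLC3 differed by 1.24, 0.47 and 0.51, and none passed (adjusted p = 0.0959, 0.282 and 0.238). Whether the breakdown and synthesis genes differ from each other was not tested.

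Glycerol metabolism held the gene with the highest difference among those measured on all 8 arrays. GUT2, the mitochondrial glycerol-3-phosphate dehydrogenase that consumes glycerol-3-phosphate, read -1.79, -0.51, -0.67 and 0.14 in naive cells and 1.24, 1.10, 1.43 and 1.69 in pretreated cells. This was a difference of 2.07 ± 0.42, about 4.21-fold (limma, adjusted p = 0.00402). GPD2, a cytosolic glycerol-3-phosphate dehydrogenase of glycerol synthesis, went the other way: 1.53, 1.45, 1.37 and 1.27 in naive and 0.48, -0.33, -0.63 and -0.11 in pretreated cells (-1.55 ± 0.26, adjusted p = 0.00123). GPP1, a glycerol-3-phosphatase of the same route, differed by -0.95 with overlap and was not called with the spread equalised (adjusted p = 0.0845). SSK2, a kinase of the osmosensing pathway, was higher, -1.35, -1.35, -0.94 and -0.76 against -0.05, -0.23, 0.17 and 0.12 (1.10 ± 0.21). Of all 31 genes of glycerol, ion transport and osmotic signalling 3 were higher and 2 lower, a combined 16.1% against 18.9% of all genes. With the spread equalised 2 were higher and 1 lower (9.68%, against 8.47%). ENA1, the sodium pump, read -1.76 to -1.13 in naive and -1.48 to -1.21 in pretreated cells and differed by -0.05 (adjusted p = 0.927).

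Of 28 iron genes 6 (21.4%) were higher, against 6.17% of all genes, and 2 were lower. With the array spread equalised 3 were higher and 2 lower. SIT1, a transporter of iron-loaded siderophores, was below the reference in naive cells, at -2.10, -2.10, -1.31 and -1.27, and near it in pretreated cells, at -0.54, -0.51, 0.00 and 0.12. The difference of 1.46 ± 0.17 passed in limma (adjusted p = 0.000443). ARN2, a further siderophore transporter, was higher by 0.79 ± 0.14. VHT1, the biotin transporter, which is controlled with the iron genes, read -3.28, -3.12 and -2.77 in naive and -0.99, -1.32, -0.43 and -0.59 in pretreated cells (2.28 ± 0.38, adjusted p = 0.00177). HMX1, the heme oxygenase, was higher by 1.60 ± 0.40 but not called with the spread equalised (adjusted p = 0.0653). CTH1, which helps degrade transcripts of iron-using enzymes, moved against these: 2.42, 1.81 and 2.05 in naive and 0.50, 1.47, -0.14 and 0.06 in pretreated cells (-1.70 ± 0.24, adjusted p = 0.000705).

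Of 24 genes of ribonucleotide reductase and DNA damage, 5 (20.8%, against 6.17% of all genes) were higher and none lower. With the spread equalised 2 (8.33%, against 1.85%) were higher. RAD54, a recombination factor, read -0.49, -0.09, 0.48 and 0.49 in naive and 0.98, 0.82 and 1.51 in pretreated cells (1.11 ± 0.20, limma adjusted p = 0.00315). RAD16 of nucleotide excision repair, the checkpoint kinase DUN1 and the DNA glycosylase MAG1 were higher by 1.28, 0.95 and 0.93, of which DUN1 and MAG1 lost the call with the spread equalised (adjusted p = 0.0850 and 0.128). Of 40 proteasome genes 7 (17.5%, against 6.17% of all genes) were higher and 1 lower, and 2 were called in each direction with the spread equalised. ECM29, a protein that binds the assembled proteasome, read -1.21, -0.70, -0.53 and -1.02 in naive and 0.73, 0.22, 0.91 and 0.73 in pretreated cells (1.51 ± 0.23, adjusted p = 0.000764). UFD1, a partner of the Cdc48 segregase, and the core subunit PUP3 were higher by 0.84 and 0.57, and RPN14, an assembly chaperone, differed by -0.76. PUP3 was not called with the spread equalised (adjusted p = 0.148).

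In the remaining lists the combined share called was 5.33% (mitochondrial ribosome), 22.2% (methionine and sulfate), 9.68% (peroxisome) and 14.7% (autophagy and vacuole). Among all genes it was 18.9%, with 6.17% higher and 12.8% lower. Each list held fewer calls with the spread equalised, where 8.47% of all genes passed. Of 75 mitochondrial ribosome genes 3 were higher (MRPS16, RSM22 and RSM25, 0.81 to 0.85) and 1 lower, VAR1, which is encoded by the mitochondrial genome and had 6 values (-2.0 ± 0.51). With the spread equalised 2 were higher and none lower, and RSM25 and VAR1 lost the call. Of 27 methionine and sulfate genes 3 (11.1%) were higher and 3 lower, with MET2, an early step of methionine synthesis, at 1.52 and the methionine permease MUP1 at 1.10. With the spread equalised these 6 lost the call, MET2 and MUP1 at adjusted p of 0.0597 and 0.0616. Of 31 peroxisome genes 2 were higher, POT1 and DCI1 of fatty acid oxidation, at 2.25 and 1.43 on 7 and 6 values, and 1 was lower. DCI1 kept the call with the spread equalised and POT1 did not (adjusted p = 0.0581). Of 34 autophagy and vacuole genes 2 were higher and 3 lower, and 1 and 2 with the spread equalised. ATG41, which acts in the formation of autophagosomes, had the lowest difference of any gene called, at 4.89, 5.13, 4.33 and 4.49 in naive and 2.63, 3.73, 1.18 and 2.67 in pretreated cells (-2.16 ± 0.44, limma adjusted p = 0.00338).

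Outside the lists, the higher genes with the largest differences had varied roles. VMR1, a vacuolar membrane transporter, read -1.19, -0.78, -0.47 and -0.28 in naive and 0.74, 0.49, 1.32 and 1.16 in pretreated cells (1.61 ± 0.18, limma adjusted p = 0.000414). CYM1, a protease of the mitochondrial intermembrane space, differed by 1.47, SIR1 of silent chromatin by 1.55 and the actin-binding YSC84 by 1.53. Of the uncharacterised genes, YMR103C differed by 1.78 and YMR196W by 1.78. With the spread equalised SIR1, YMR103C and YMR196W were not called (adjusted p = 0.0622, 0.0622 and 0.0532). YDR222W had the smallest adjusted p of all, at 2.75, 2.61, 2.13 and 2.20 in naive and 1.26, -0.62 and -0.43 in pretreated cells (-2.06 ± 0.19, adjusted p = 0.000402). TDA6 differed by -1.71, and was not called with the spread equalised (adjusted p = 0.0881). The gene with the largest difference of all, YBR284W, at 3.70, was named after its values were seen: it had 6 values, and a reading of -5.45 on the naive 40 min array of replicate 1 weighed on it.

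The genes called in the higher direction were longer than the others, a property the labels and lists did not use and that was looked at after the calls were known. By the RefSeq table of the R64 assembly, which gave a length for 98.0% of the genes tested, the median gene length was 2067 bases for the higher genes, 1269 for all genes tested and 1008 for the lower genes, or 1161 for the lower genes without ribosomal proteins. Among genes over 4000 bases, 18.3% were higher and 4.17% lower, whereas among genes under 500 bases, ribosomal proteins left out, 2.71% were higher and 12% lower. With the array spread equalised the medians were 2538 for higher and 980 for lower genes. The longest genes read low on the naive arrays, with medians of -0.90, -0.72, -0.62 and -0.58, and less so on 3 of the 4 pretreated arrays (-0.45, -0.15 and -0.53), while pretreated replicate 2 at 30 min read -0.77, within the naive range. ECM29, VMR1, GDB1 and SSK2 belong to this longest class. The part of gene length in these differences was not tested.

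**Figure D4:**
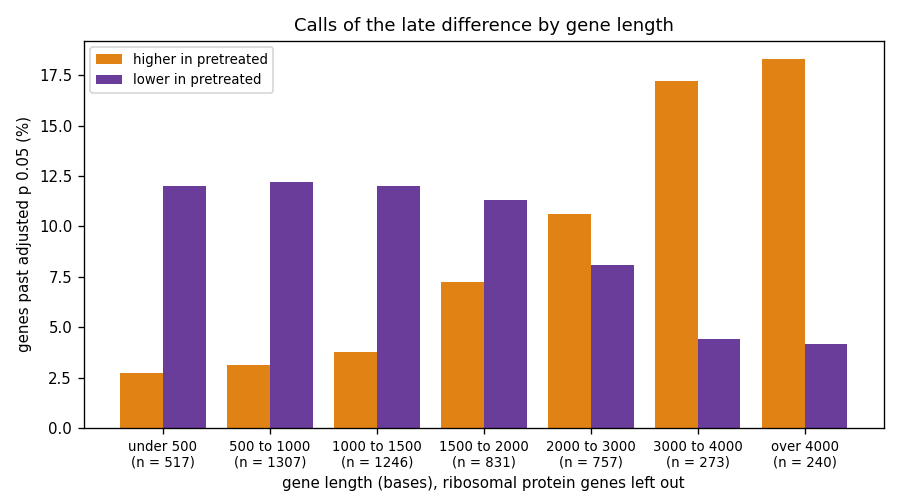
Share of genes called higher (orange) or lower (purple) in pretreated cells, in percent, by gene length, ribosomal protein genes left out, with the number of genes in each bin. The higher share goes from 2.71% in the shortest bin to 18.3% in the longest, and the lower share from 12% to 4.17%.

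Marker genes of other cell types were also looked up, though a ratio of treated over reference cells of 1 strain cannot show a wrong strain. Of the genes specific to mating type alpha, 2 were measured well enough, SAG1 and STE3, and neither passed (adjusted p = 0.231 and 0.927). Of the genes deleted in BY4741, HIS3 alone had enough values and differed by -0.38 (adjusted p = 0.312). Of 25 genes of pheromone response and mating type a, 1 was higher and 1 lower (8.0% combined, against 18.9% of all genes). With the spread equalised 1 was higher and none lower. Of 10 tested sporulation genes 2 were lower (20.0%, against 12.8% of all genes). IME1, the inducer of meiosis, read 0.54, 1.07, 0.80 and 1.07 in naive and -0.05, 0.34, -0.60 and -0.08 in pretreated cells (-0.97 ± 0.22, limma adjusted p = 0.00676), and SPR3, a sporulation septin, differed by -1.37. IME2, NDT80, SPO1, HOP1, ZIP1, DMC1, DIT1 and DIT2 did not pass.

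Because the arms had different references, the comparison was repeated on a common one, by adding to each pretreated value the log ratio of recovered cells over untreated cells from 3 further arrays. It shares the 8 late arrays with the comparison above. A bias of a gene towards either dye, if the same on every array, drops out of the plain difference but not here. Of 5399 genes 468 (8.67%) passed, 129 higher and 339 lower (6.28%), and the count ranged from 55 without naive replicate 1 to 598 without pretreated replicate 2. The ribosomal protein lists had 37 of 79 and 23 of 54 lower (medians -1.04 and -0.995), and the chaperones 14 of 39 (median -0.59). Rescaling the H2O2 arrays alone left 22 genes (0.407%), with 3 of the 79, none of the 54 and 1 of the 39. Genes at the smallest adjusted p, 0.00472, included VMR1 (1.60 ± 0.24), SHM2 (-1.42 ± 0.23), CTH1 (-1.91 ± 0.29), YDR222W (-1.78 ± 0.22) and MBF1 (-1.28 ± 0.20). TSA2 stood 1.11 ± 0.27 higher on this reference (adjusted p = 0.0220) and KAR2 differed by -1.17 (adjusted p = 0.00738), and neither passed with the H2O2 arrays rescaled.

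The difference itself was not found to depend on the time within the late window. Tested as the difference at 40 min minus that at 30 min, 0 of 5410 genes passed in limma, with 93 at an unadjusted p under 0.05, and the 5 genes with the smallest p were PEP7, IRS4, JJJ3, PHO84 and IFM1, each at an adjusted p of 1.00. Without pretreated replicate 1, 3 genes passed. With 2 arrays in each of the 4 groups small differences would go unseen. Taken alone, 30 min gave 144 of 4952 genes (2.91%; 39 higher, 105 lower) and 40 min 402 of 4769 (8.43%; 63 higher, 339 lower).

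An unmatched comparison, chosen after the data were seen, set pretreated cells at 30 min against naive cells at 40 min. Here 0 of 5037 genes passed in limma, with 387 at an unadjusted p under 0.05. Across genes within pairs of arrays, which are not independent replicates, the pretreated 30 min arrays correlated with the naive 40 min arrays at r = 0.891 to 0.917 and with the naive 30 min arrays at 0.827 to 0.884. In this unmatched setting the median difference was -0.32 for large-subunit and -0.28 for small-subunit ribosomal proteins, -0.26 for chaperones and 0.26 for common stress genes, against 0.01 for all genes. KAR2 differed by -0.98, SIS1 by -0.95 and VMR1 by 0.99, each at an adjusted p of 0.406. A test of 2 arrays against 2 that passes nothing does not show that the groups are alike.

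The late difference was also set against the difference at 10 and 20 min, from 12 further arrays, 6 in each arm. Of 4950 genes 77 (1.56%) passed for late minus early, 14 in the positive and 63 (1.27%) in the negative direction, with 921 at an unadjusted p under 0.05. This count rested on single replicates: without naive replicate 1 no gene passed, without naive replicate 2 there were 5, and without pretreated replicate 2 there were 277. Among the 63 were 7 large-subunit and 4 small-subunit ribosomal protein genes, 6 chaperones and 6 glycolysis genes. RPS13 in naive cells had group means of -0.02, -0.42, -0.42 and -1.57 at 10, 20, 30 and 40 min, against -0.11, -0.87, -2.15 and -3.68 in pretreated cells. KAR2 means went through 0.18, 0.62, 1.33 and 1.24 in naive and 0.38, 0.41, 0.26 and -0.25 in pretreated cells, so the arms were close at 10 min and apart at 30 min.

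Some genes stood higher in pretreated cells early but not late. ADH5, an alcohol dehydrogenase, had naive means of 0.30, 0.87, 2.10 and 2.61 and pretreated means of 1.86, 2.76, 2.32 and 1.85. Its late difference of -0.27 did not pass (adjusted p = 0.362), while late minus early was -2.0 ± 0.26 (limma, adjusted p = 0.00646). CTT1 had naive means of 2.40, 5.19, 5.88 and 6.07 and pretreated means of 4.21, 5.78, 5.37 and 4.52, with late minus early at -2.23 ± 0.67 (adjusted p = 0.0863). TSA2, at 2.84, 4.19, 5.12 and 5.78 in naive and 4.05, 5.52, 6.53 and 6.19 in pretreated cells, was above the naive mean at all 4 times, and late minus early was -0.36 (adjusted p = 0.459). GLY1, of glycine synthesis, changed sides, with naive means of -0.11, 0.19, 0.73 and 0.42 and pretreated means of 0.47, 0.25, -0.18 and -0.96 (late minus early -1.46 ± 0.22, adjusted p = 0.0130).

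**Figure D5:**
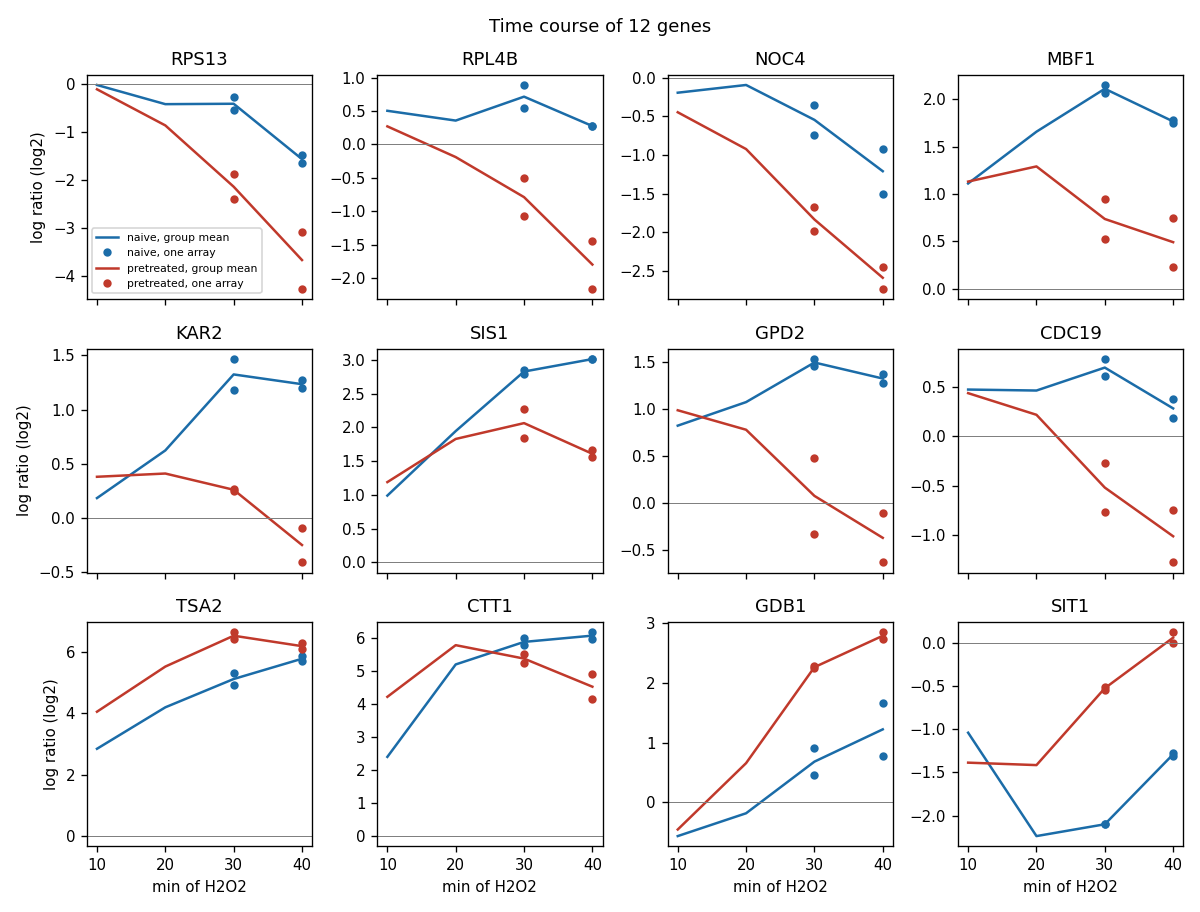
Log ratio (log2) of 12 genes over 10 to 40 min of H2O2, with lines through the group means of naive (blue) and pretreated (red) cells and a dot for each of the late arrays. At 30 and 40 min the arms separate without overlap for each of the 12, with CTT1 higher in naive and TSA2, GDB1 and SIT1 higher in pretreated cells. Most of the 12 were named for a small p or a large difference on these same arrays, so their separation follows in part from that choice. Of all genes with 8 values, 11.6% lacked overlap in the lower and 10.5% in the higher direction.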

How the data were processed

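Dual-channel spotted arrays compared H2O2-treated yeast (channel 2) with a reference (channel 1), per the labels. The authors deposited 1 log ratio per gene and array, read here as log2 of treated over reference. The labels and headers state no log base, background correction, normalization or spot filter. The direction follows the channel labels, and no dye swap is labelled. Names came from the RefSeq table for 5457 of 5604 IDs. No sequence was read, as no genome was used.

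Group means over the 20 H2O2 arrays of the first design (10 to 40 min) were fitted with limma 3.58.1 (lmFit and eBayes, R 4.3.3), on the deposited log2 values without further normalization. The late difference is pretreated minus naive, averaged over 30 and 40 min, for genes with at least 3 values in each arm of 4. Benjamini-Hochberg adjusted p under 0.05 over all genes tested was the threshold, and ± is the standard error. The level difference adds the recovered over untreated ratio, late minus early subtracts the mean difference at 10 and 20 min, and time dependence is the difference at 40 min minus that at 30 min. Exact permutation tests were two-sided. To equalise spread, each array was divided by its SD and multiplied by the median SD. The script was tested on simulated data. No counts or depths exist, and the number of arrays limits the precision.

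Genes were named by rule: the 12 largest differences in each direction among genes called, measured on all 8 arrays and not overlapping; the 4 smallest p values called in each list; a few genes looked up by name; and the smallest p values of each further test. One gene picked by this rule is not reported here. The comparison, the 32 lists and the rules were chosen with earlier results of these data known. Tried were 26 alternatives and 6 more added after the data were seen, among them averaging over times, leaving out single arrays and the unmatched times. Replicate numbers were not taken to pair the arms, since not every correlation was over 0.1: deviations of same-numbered naive and pretreated arrays correlated at 0.178 at 30 min, 0.0428 at 40 min, -0.00182 to 0.396 at 10 min and 0.091 to 0.562 at 20 min.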

Additional observations from a re-analysis of the deposited data

Results flagged for a closer look

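The pretreated minus naive difference differed between the late (30 and 40 min) and early (10 and 20 min) window by a test of that difference itself (limma, Benjamini-Hochberg) for 77 genes, all of which lost the call without naive replicate 1. Among the genes named, the difference moved up for VMR1 (1.16), ECM29 (1.43), SIT1 (1.23) and ARN2 (0.77). It moved down for the ribosomal protein genes RPS13 (-1.65), RPL4B (-1.40), RPS8A (-1.50), RPL8B (-1.24), RPP0 (-1.29), RPP2B (-1.55), RPL16A (-1.63), RPL4A (-1.25) and RPS11B (-1.18). Chaperone genes that moved down were KAR2 (-1.27), SIS1 (-1.13), FES1 (-1.15), CUR1 (-0.98) and SSE2 (-1.0). In central metabolism GPD2 (-1.49), CDC19 (-1.12), ADH1 (-1.02), ENO2 (-1.08) and ADH5 (-2.0) moved down, as did LEU1 (-1.30), HOM2 (-0.97) and GLY1 (-1.46) of amino acid synthesis. The wall genes GAS1 (-1.10), CIS3 (-0.93) and SCW11 (-1.29), the iron regulator CTH1 (-1.29), SPR3 (-1.10), YDR222W (-1.70) and MBF1 (-1.15) moved the same way. The late and early differences come from different arrays.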

How the results depend on the processing

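The late difference gave 1024 calls as reported. It gave 623 with print number as a random block, 458 with the spread equalised, 297 with that and arm and replicate number as a random block, 245 after quantile normalization, 144 at 30 min alone, 402 at 40 min alone and 232 with 2 averaged values against 2. Leaving out a replicate or a single array gave 346 to 955 calls. More genes passed with the spread taken from other sets of arrays: 1320 with the 8 late arrays alone, 1371 without the YG8 arrays and 1357 over all 32 arrays. The share of calls that were higher was 32.6% as reported, 21.8% with the spread equalised, 44.1% after quantile normalization and 9.43% with the equalised spread and random block. The level difference (468) gave 22 with the H2O2 arrays alone equalised, 175 with recovered minus mock added, and 55 to 598 without 1 replicate. Time dependence (0, with 93 at an unadjusted p under 0.05) gave 0 to 3, and late minus early (77) gave 283 over all 32 arrays, 22 with the spread equalised and 0 to 277 without 1 replicate. With the replicate number as a replicate block the counts were 1469, 528, 0 and 398, though the numbers were not taken to pair the arms. Of single named genes, IRS4 turned to -0.20 at 30 min alone, and with the spread equalised the level difference turned for RPL26B (0.53), RPS8A (0.51), CDC19 (0.02), ADH1 (0.37), GUK1 (0.17) and CWP2 (0.25), where the recovered arrays, of small SD, were scaled up too. Of 132 named genes called, 31 kept the call in every setting. Fewer samples entered the single times and left-out replicates. For the other settings the cause was not tested.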
